A study of Homo sapiens with 12 samples.

Results

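The nuclear-encoded subunits of respiratory complexes I, III and IV and of the ATP synthase (complex V) were followed by RNA sequencing in MRC5 cells. These are human embryonic lung fibroblasts. Members were taken from the gene names of the count table, as NDUFA, NDUFB, NDUFC, NDUFS, NDUFV, UQCR, CYC1, COX5 to COX8 and ATP5 names, without pseudogenes and assembly factors. This gave 82 of 57500 listed genes, of which 38 belong by name to complex I, 10 to complex III, 14 to complex IV and 20 to complex V. The 4 groups of 3 libraries were compared, all of the same line: proliferating cultures (Prol), cultures driven into senescence by an X-ray dose of 20 Gy (Sen(IR)), and cultures that received the same dose plus either UK5099 at 100 µM (Sen(IR)+UK5099) or CTPI2 (Sen(IR)+CTPI2). UK5099 blocks the mitochondrial pyruvate carrier and CTPI2 the mitochondrial citrate carrier. By the study's methods, inhibitor was added 1 day after irradiation and kept in the medium for 12 days. They place the collection of irradiated cells in general between days 10 and 12, so the exact day of the treated libraries is not settled. They name 15 and 30 µM of CTPI2 without saying which was sequenced. One cell line stands behind all groups. The study's legends call its RNA sequencing replicates independent, while the labels do not say that the 3 libraries of a group came from separate cultures, so the p-values measure the spread between these libraries.

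The respiratory chain sits in the inner mitochondrial membrane. Complex I takes electrons from NADH, complex III passes them from ubiquinol to cytochrome c, complex IV hands them to oxygen, and complex V uses the proton gradient so built to make ATP. Most subunits are encoded in the nucleus and imported, and a small set is encoded in mitochondrial DNA. Fibroblasts grown in culture express the common forms of these subunits, while several isoform genes are known from muscle, testis or sperm.

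Total counts ran from 20597736 to 28245693 per library, and the members took 0.424 to 0.531% of them. Levels are given as CPM, the counts scaled to a common library total with TMM factors. The label of the irradiated groups was checked with MKI67, a proliferation marker, at 235 ± 32.3 CPM in Prol and 11.0 ± 1.65 in Sen(IR) (mean ± SD, n = 3), falling further to 0.950 with UK5099, and with CDKN1A, which encodes the p21 cell cycle inhibitor, at 315 ± 24.6 and 1055 ± 16.2 CPM. All 8 fibroblast markers were detected in every group, their summed level being 19845 to 24516 CPM across Prol and Sen(IR) libraries, 17421 to 19191 under CTPI2 and 10544 to 10987 under UK5099. Epithelial markers summed to at most 2.23 CPM (4 listed, KRT5 at 0 in 3 groups), endothelial markers to at most 6.23 (4 listed, CDH5 at 0 in 2 groups) and immune markers to at most 0.630 (4 listed, CD3E at 0 in 2 groups). Under UK5099 the collagens COL1A1 (log2 fold change -1.56), COL3A1 (-1.75) and COL1A2 (-1.06) and also THY1 (-0.76) and VIM (-0.14) fell against Sen(IR), while DCN (-0.00), LUM (0.05) and PDGFRB (0.05) did not pass. The part of this in the members' results was not tested. In bulk RNA, fewer cells of a kind and less RNA per cell cannot be told apart.

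Of the 82 members, 77 passed the filter on low counts and were tested, and 76 had a mean above 1 CPM. The 5 untested members are isoform genes or copies at the floor of detection: COX6A2 had no count in any library, and COX6B2, COX7B2, COX8C and ATP5MGL had at most 6 counts in a library. A count of 0 allows up to 0.111 to 0.147 CPM (3 counts), for counting error only. The tested members lay high among expressed genes, with a median of 40.2 CPM against 15.5 for all 16251 tested genes, and were short, with a median transcript of 744 bases against 2993. By name NDUFA4 and NDUFA4L2 fall under complex I, although the NDUFA4 protein is now assigned to complex IV. ATP5S (DMAC2L), the coupling factor B gene, carries an ATP5 name but encodes no subunit of the enzyme, and ATP5IF1 encodes its inhibitor.

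To compare levels between genes, CPM were divided by the length of the canonical transcript in kilobases. In Sen(IR) the median of the tested members was 32.9 CPM per kb in complex I, 26.8 in complex III, 78.9 in complex IV and 68.8 in complex V. ATP5F1B, the catalytic beta subunit of the F1 head, was the highest member at 329.6 CPM per kb, followed by NDUFS5, a small accessory subunit of complex I, at 217, ATP5PD, of the peripheral stalk, at 184, and UQCRH, the hinge protein of complex III, at 158. Among the core subunits of complex I that carry electrons, NDUFV1 stood at 33.4 CPM per kb, NDUFV2 at 28.1 and NDUFS1 at 10.4. These values depend on the transcript length chosen, which is long for genes with long untranslated ends.

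The summed level of the members was lower in Sen(IR) than in Prol and lower again with UK5099. It was 4908, 5079 and 5575 CPM in Prol, 4535, 4541 and 4722 in Sen(IR), 4098, 4483 and 4028 with UK5099, and 4787, 4671 and 4768 with CTPI2. With TMM factors no Prol library overlapped the Sen(IR) libraries. No UK5099 library reached the lowest Sen(IR) library, although UK5099 replicate 2 came close to it. This depends on the scaling. As a share of all raw counts, UK5099 replicate 2 (0.4677%) was above all Sen(IR) libraries (0.4469 to 0.4675%). UK5099 replicates 1 and 3 were below them (0.4306 and 0.4243%), and the Prol libraries were above them (0.4728 to 0.5309%). The group means differed by -11.3% (Sen(IR) against Prol), -8.62% (UK5099 against Sen(IR)) and 3.10% (CTPI2 against Sen(IR)). Prol replicate 3 was the highest Prol library in all 4 complexes, and UK5099 replicate 2 the highest UK5099 library.

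**Figure D1:**
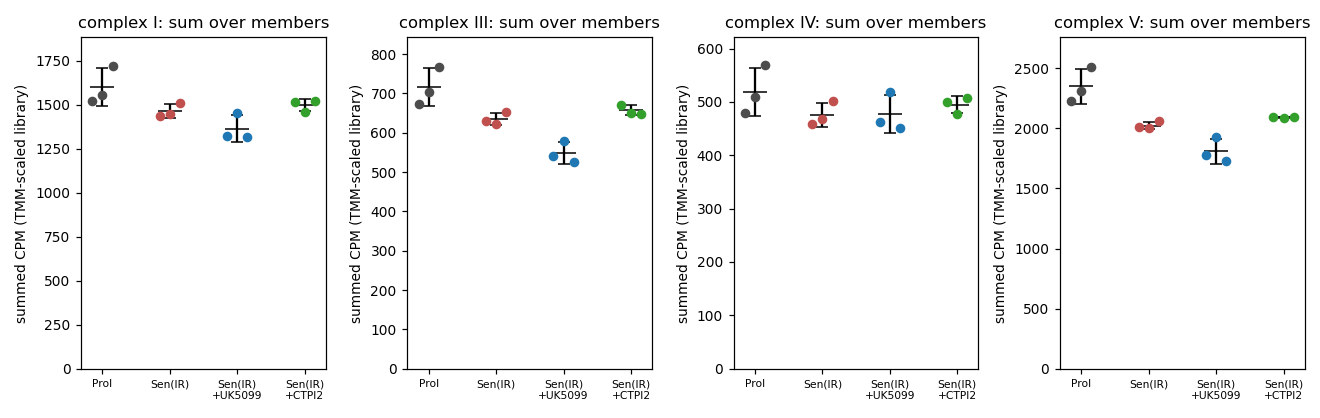
Summed CPM over the members of each complex (y axes from 0) in each library; points are the 3 libraries of a group (x axis), and the bar and whiskers are mean and SD. Complex III shows UK5099 at 527 to 580 CPM below Sen(IR) at 622 to 652, while in complex IV the UK5099 libraries (451 to 518) overlap those of Sen(IR) (458 to 501).

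By complex, the sums differed between Sen(IR) and Prol by -8.48% in complex I, -11.3% in complex III, -8.36% in complex IV and -13.9% in complex V. Between UK5099 and Sen(IR) they differed by -6.81% in complex I, -13.5% in complex III, 0.351% in complex IV and -10.5% in complex V. With TMM factors the UK5099 libraries lay below all Sen(IR) libraries in complexes III and V. In complex I the UK5099 replicate 2 sum of 1457 CPM lay within the Sen(IR) range of 1438 to 1510. Differences between complexes were not tested, and the sums by complex were not repeated under other scalings.

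The first comparison asks what irradiation-induced senescence does to these genes. Most members that moved were lower in Sen(IR), with the ATP synthase and the electron-carrying cytochrome c1 among them, but the one change beyond 2-fold was a rise, in the COX7A1 isoform of complex IV. By edgeR's quasi-likelihood test with Benjamini-Hochberg adjustment over all 16251 genes, 35 of 77 members passed an adjusted p of 0.05 as lower (45.5%, against 34.5% of all tested genes) and 10 as higher (13.0%, against 34.1%). When the log2 fold change also had to exceed 0.5 in size, 8 were called lower (10.4%, against 22.4%) and 1 higher (1.30%, against 24.8%). The libraries of both groups did not overlap for 43 members (55.8%, against 70.9%). Most of these changes were small, with a median log2 fold change of -0.16 against 0.01 for all genes.

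These counts changed with the scaling. Upper-quartile factors moved the median of all genes by 0.12 and gave 24 members lower and 15 higher, and scaling by library totals alone gave 29 and 13. With upper-quartile factors the members called beyond 0.5 were CYC1 and ATP5S as lower and COX7A1, NDUFA2 and NDUFA3 as higher, and UQCRFS1 (-0.12, adjusted p = 0.106), UQCRH (-0.13, adjusted p = 0.0857) and ATP5MC3 (-0.10, adjusted p = 0.159) no longer passed. Relative to the median of all genes, the members' median was -0.18 under TMM, RLE, upper-quartile and total scaling. By complex it was -0.11 in complex I, -0.21 in complex III, -0.09 in complex IV and -0.25 in complex V under each of them. A change of scaling moves all genes nearly alike. These relative values could therefore not differ between scalings and are no check on the counts.

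**Figure D2:**
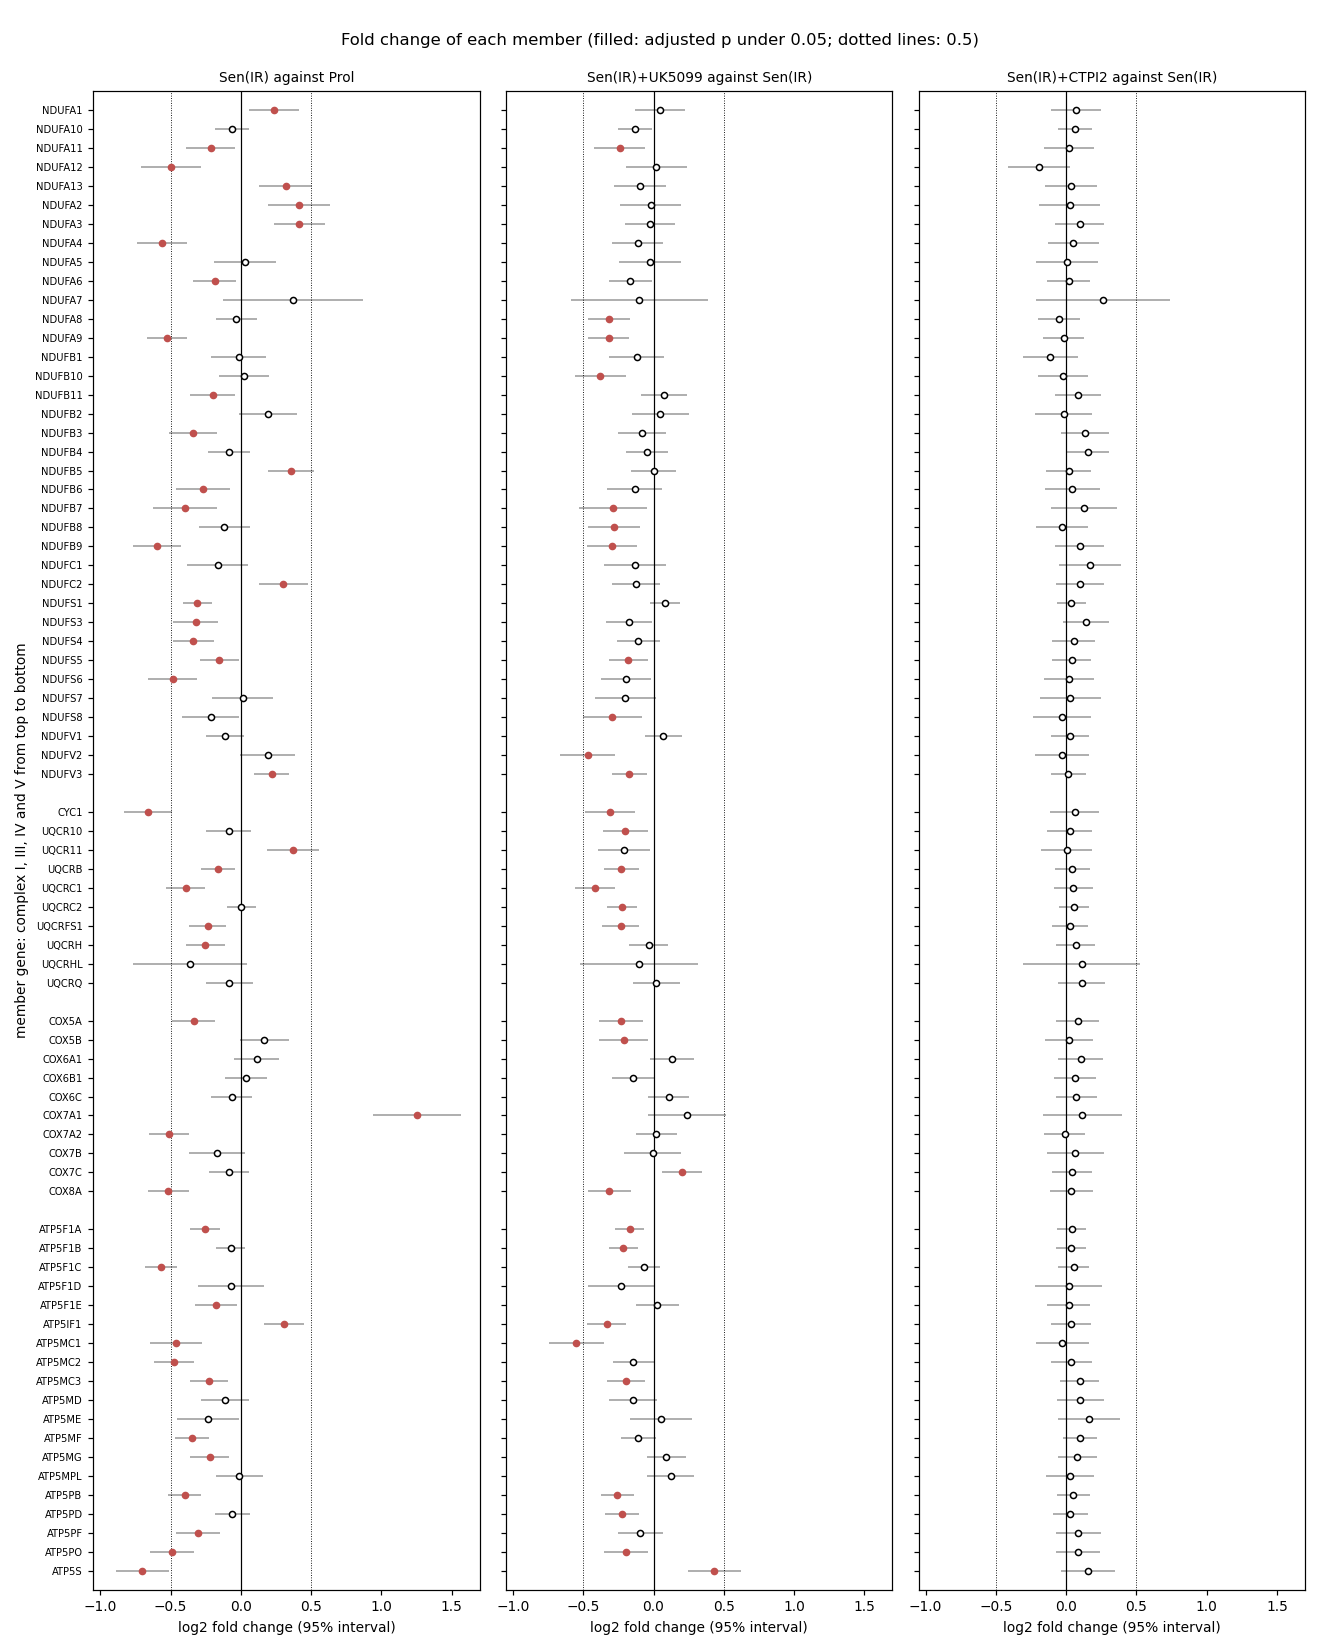
Log2 fold change (x axis) of 75 tested members (rows, complexes I, III, IV and V from top to bottom) with 95% intervals in 3 comparisons; filled points passed an adjusted p of 0.05 and dotted lines mark 0.5. In Sen(IR) against Prol most filled points lie left of 0 and COX7A1 stands alone at 1.25, with UK5099 the filled points lie between -0.55 and 0.43, and with CTPI2 no point is filled.

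COX7A1 and COX7A2 encode alternative forms of the same complex IV subunit, known as the heart and skeletal muscle form and the widely expressed form. COX7A1 was at 4.52, 4.89 and 5.80 CPM in Prol and at 10.6, 11.5 and 14.4 in Sen(IR), so every senescent library was above every proliferating one. Its log2 fold change was 1.25 ± 0.15 (SE, adjusted p = 1.39e-07, edgeR). COX7A2 went the other way, from 65.5, 68.5 and 77.8 CPM to 49.4, 47.9 and 51.2, again without overlap (log2 fold change -0.51 ± 0.068, adjusted p = 6.97e-07, edgeR). Per kilobase COX7A2 remained the higher form in Sen(IR), at 107 against 35.8 CPM per kb, where Prol had 153 and 14.9.

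In complex IV 3 of 10 tested members passed as lower (30%, against 34.5% of all tested genes) and 1 as higher (10%, against 34.1%). COX8A, a small subunit whose liver-type form is the common one, stood at 47.9, 48.9 and 56.1 CPM in Prol and 34.5, 34.8 and 37.7 in Sen(IR). The groups were apart, with a log2 fold change of -0.52 ± 0.071 (adjusted p = 1.17e-06, edgeR). COX5A, which lies on the matrix side, also fell (-0.34 ± 0.073). The other 6 tested complex IV members did not pass, among them COX6A1 (0.11 ± 0.076), COX6B1 (0.04 ± 0.072), COX7B (-0.17 ± 0.097) and COX7C (-0.08 ± 0.068). Without Prol replicate 3 COX6A1 passed as higher (0.20, adjusted p = 0.0200), also under upper-quartile factors (0.23), and without Prol replicate 1 COX7C (-0.16) and COX7B (-0.24) passed as lower, COX7B also without Sen(IR) replicate 3 (-0.26). Another listed gene shares 35.4% of the exon bases of COX8A, so its count is uncertain.

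In complex III, 5 of 10 members passed as lower (50%, against 34.5% of all tested genes) and 1 as higher (10%, against 34.1%). CYC1, cytochrome c1, carries an electron from the iron-sulfur protein to cytochrome c. It was at 43.1, 39.6 and 44.9 CPM in Prol and 29.4, 25.2 and 26.1 in Sen(IR), with no overlap and a log2 fold change of -0.66 ± 0.081 (adjusted p = 2.09e-07, edgeR). UQCRFS1, the Rieske iron-sulfur protein, fell by 0.24 ± 0.062 on the log2 scale, and UQCRC1, one of the large core proteins on the matrix side, by 0.39 ± 0.067. Its partner core protein UQCRC2 was at 125 to 132 CPM in Prol and at 125 to 132 in Sen(IR) (log2 fold change 0.00, 95% interval -0.10 to 0.11). UQCR11, a small accessory subunit, was the one that rose, from 28.7 to 33.2 CPM in Prol to 37.9 to 41.2 in Sen(IR) (0.37 ± 0.090, adjusted p = 0.000878, edgeR). UQCRH fell (-0.25 ± 0.066), while its intronless copy UQCRHL, at 2.00 to 3.26 CPM in these groups, gave -0.36 ± 0.20 and passed without Sen(IR) replicate 3 (-0.57). Both sequences are close to identical. The study's methods count unique reads alone, so reads that fit both genes may be missing from both counts.

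Complex I was mixed, with 15 members lower (39.5%) and 7 higher (18.4%) of 38, where all tested genes gave 34.5 and 34.1%. The NDUFA genes divided into 5 lower and 4 higher of 14, the NDUFB genes into 5 and 1 of 11, and the NDUFS genes into 5 and 0 of 8. NDUFB9, an accessory subunit of the membrane arm, fell from 52.4, 50.8 and 56.3 CPM to 34.1, 34.7 and 36.7 (log2 fold change -0.60 ± 0.082, adjusted p = 1.15e-06, edgeR). NDUFA4 fell from 113, 109.9 and 123 CPM to 73.9, 78.4 and 83.1 (-0.56 ± 0.085), and NDUFA9, which binds at the base of the quinone site, from 50.2 to 54.9 CPM to 35.0 to 37.4 (-0.52 ± 0.069). None of these 3 overlapped between the groups. The largest rises of the complex were NDUFA3, from 9.67 to 10.5 CPM to 12.7 to 13.6 (0.42 ± 0.088), and NDUFA2, from 15.8 to 20.4 CPM to 22.4 to 26.2 (0.41 ± 0.107), both accessory subunits.

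The 7 core subunits of complex I that carry the flavin, the iron-sulfur clusters or the quinone site gave 2 passing falls and no passing rise. The share was 28.6% lower, below the 34.5% of all tested genes, and 0% higher, against 34.1%. The 2 falls were NDUFS1, at 153, 149 and 148 CPM in Prol and 116, 123 and 124 in Sen(IR) (-0.31 ± 0.051, adjusted p = 1.21e-05, edgeR), and NDUFS3 (-0.32 ± 0.078). NDUFV1, which binds NADH and flavin, gave -0.11 ± 0.065, NDUFV2 0.19 ± 0.093, NDUFS7 0.01 ± 0.104 and NDUFS8 -0.21 ± 0.097. NDUFV2 passed as higher without Prol replicate 3 (0.31, adjusted p = 0.00637), under upper-quartile factors (0.31) and with library totals alone (0.24), and NDUFS8 passed as lower without any 1 of Prol replicates 1 and 2 and Sen(IR) replicate 2 (-0.28 to -0.25).

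In complex V, 12 of 19 tested members passed as lower (63.2%, against 34.5% of all tested genes) and 1 as higher (5.26%, against 34.1%). In the catalytic head, ATP5F1A, the alpha subunit, went from 468, 505 and 518 CPM to 418, 409.7 and 421 (-0.25 ± 0.050, adjusted p = 0.000113, edgeR), whereas ATP5F1B, the beta subunit, was at 575 to 658 CPM in Prol and 574 to 589 in Sen(IR), which overlap (-0.07 ± 0.051, not passing). The difference between both genes was not tested. The gamma subunit of the rotating stalk, ATP5F1C, fell from 142, 141 and 153 CPM to 95.9, 96.1 and 103 (-0.57 ± 0.053, adjusted p = 2.89e-09, edgeR). Of the 4 peripheral stalk genes, ATP5PB (-0.40 ± 0.056), ATP5PF (-0.31 ± 0.077) and ATP5PO (-0.49 ± 0.074) fell, and ATP5PD gave -0.06 ± 0.059. Other listed genes share 37.3% of the exon bases of ATP5PF and 21.6% of those of ATP5PO. ATP5S was at 18.3, 18.8 and 18.6 CPM in Prol and 11.9, 11.6 and 10.8 in Sen(IR), a log2 fold change of -0.70 ± 0.090, and shares 41.8% of its exon bases with other listed genes, CDKL1 among them.

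ATP5MC1, ATP5MC2 and ATP5MC3 encode the same mature subunit c, the protein of the rotating membrane ring, with different import sequences. All 3 passed as lower in Sen(IR), ATP5MC3 not under upper-quartile factors. ATP5MC1 went from 35.4, 34.7 and 37.7 CPM to 25.8, 23.3 and 29.4 (-0.46 ± 0.089), ATP5MC2 from 55.2, 61.4 and 64.7 to 44.1, 43.5 and 42.9 (-0.48 ± 0.069), and ATP5MC3 from 103, 113 and 121 to 93.4, 95.1 and 99.2 (-0.23 ± 0.066). Each was without overlap, ATP5MC3 narrowly. The 1 member of complex V that rose was ATP5IF1, whose product inhibits the enzyme when it runs backwards, from 40.1, 42.8 and 46.8 CPM to 52.8, 52.7 and 55.2 (0.31 ± 0.068, adjusted p = 0.000389, edgeR).

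**Figure D3:**
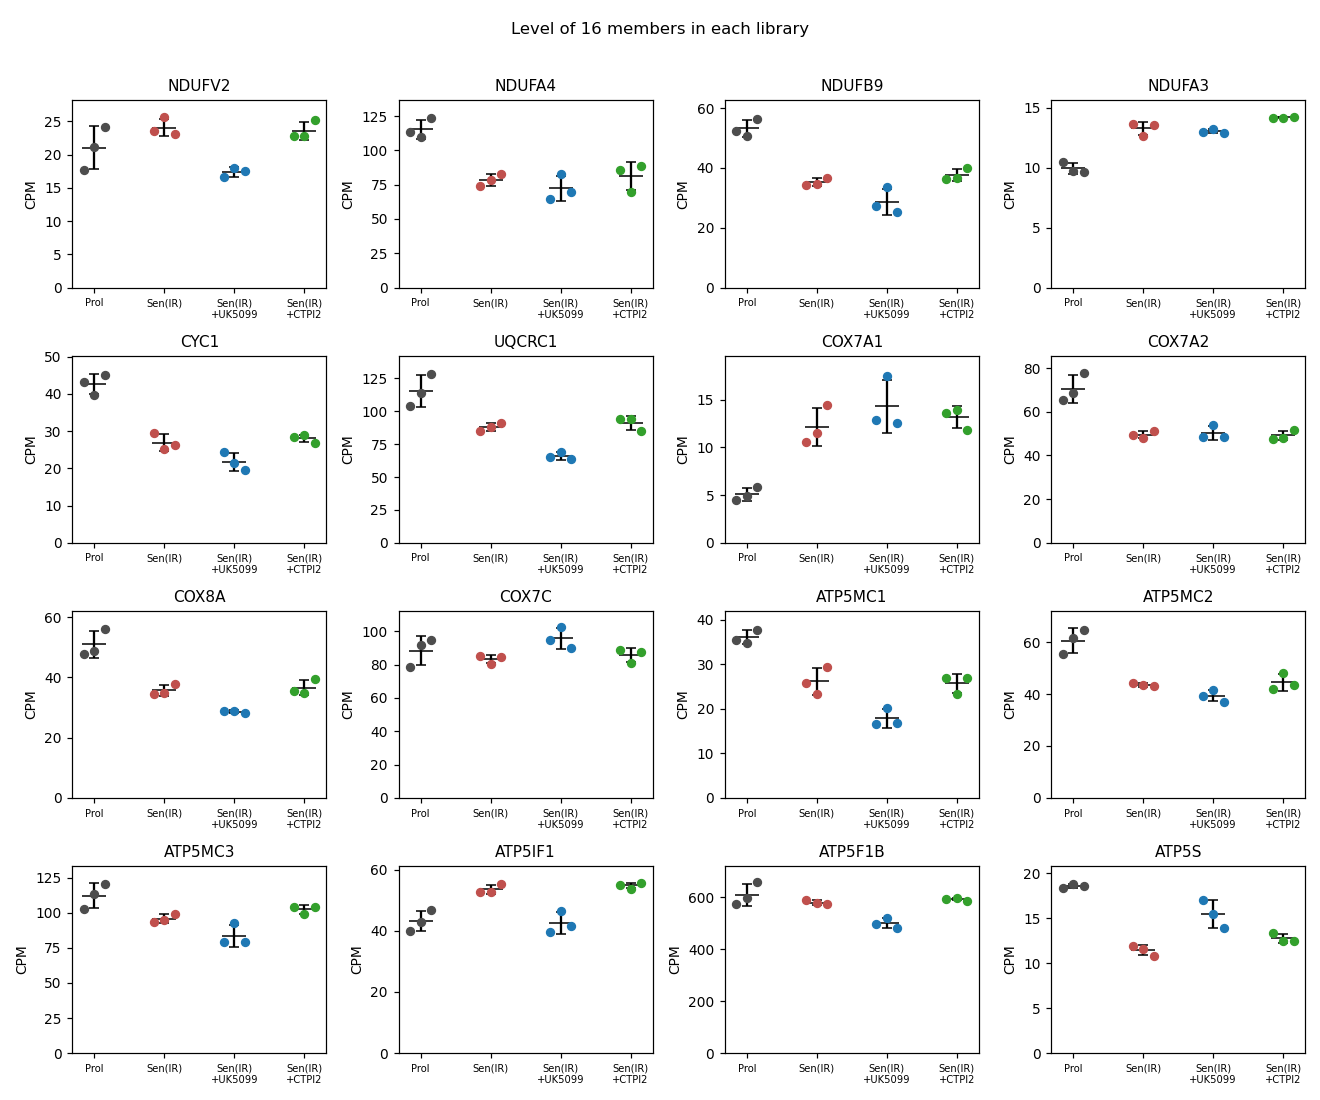
CPM (y axes from 0) of 16 members in each library, with the group mean and SD as bar and whiskers; the x axis gives the 4 groups of 3 libraries. COX7A1 rises from at most 5.80 CPM in Prol to at least 10.6 in Sen(IR), ATP5MC1 steps down from Prol through Sen(IR) to UK5099 (16.5 to 20.2 CPM), and ATP5S and ATP5IF1 return with UK5099 towards their Prol levels.

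The second comparison asks what blocking pyruvate import did in irradiated cells. Members that moved were again mostly lower, led by the subunit c gene ATP5MC1, the flavin-site partner NDUFV2 and the complex III core protein UQCRC1. Their fitted fold changes correspond to differences of -31.7, -27.7 and -25.0%. With UK5099 28 of 77 members passed as lower than in Sen(IR) (36.4%, against 23.5% of all tested genes) and 2 as higher (2.60%, against 21.9%). ATP5MC1 alone was called beyond the 0.5 limit as lower (1.30%, against 12.1%) and no member as higher (0%, against 8.76%), so most falls were small in size. The groups did not overlap for 33 members (42.9%, against 56.6%). The median log2 fold change was -0.13 over the members and 0.01 over all genes. Both comparisons use the same Sen(IR) libraries, so their values are set side by side here and no overlap between them is given as a result.

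Scaling by library totals alone turned these counts into 14 lower and 9 higher, with the members' median at -0.05. The one member called beyond 0.5 was then ATP5S, as higher, and not ATP5MC1. ATP5F1A (-0.08, adjusted p = 0.158), ATP5MC3 (-0.11), UQCRFS1 (-0.15) and NDUFS8 (-0.21) no longer passed, and NDUFS1 (0.17), NDUFV1 (0.16), COX6A1 (0.22) and COX7A1 (0.32) passed as higher. Relative to the median of all genes the members' median was -0.14 under all 4 scalings, which again holds by construction. Leaving out UK5099 replicate 3 reduced the 28 to 16 and leaving out replicate 2 raised them to 33. Most members are short transcripts, and over all genes the 3222 genes with the shortest transcripts (59 to 1475 bases, 55 of them members) had a median log2 fold change of -0.06 with UK5099, against 0.11 in the 3219 genes with the longest (from 5466 bases). The part of transcript length in the members' fall was not tested. In Sen(IR) against Prol the same gene sets had medians of -0.01 and 0.01.

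ATP5MC1 was at 25.8, 23.3 and 29.4 CPM in Sen(IR) and at 16.5, 20.2 and 16.8 with UK5099. All UK5099 libraries lay below all Sen(IR) libraries, with a log2 fold change of -0.55 ± 0.094 (adjusted p = 4.87e-05, edgeR). Without one library at a time it ranged from -0.65 to -0.46, falling short of the 0.5 limit without Sen(IR) replicate 3 and without UK5099 replicate 1. The other subunit c genes moved less: ATP5MC3 went to 78.9, 92.5 and 79.5 CPM (-0.20 ± 0.066, adjusted p = 0.0191, edgeR) and ATP5MC2 to 39.4, 41.5 and 37.1 (-0.14 ± 0.071, adjusted p = 0.103). ATP5MC3 no longer passed without any 1 of 3 libraries, Sen(IR) replicate 3 and UK5099 replicates 1 and 3 (adjusted p 0.0793 to 0.0986).

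Over complex V, 8 of 19 members passed as lower (42.1%, against 23.5% of all tested genes) and 1 as higher (5.26%, against 21.9%). Both subunits of the catalytic head fell: ATP5F1A to 362, 391 and 357 CPM (-0.17 ± 0.050, adjusted p = 0.00806, edgeR) and ATP5F1B from 589, 577 and 574 to 497, 521 and 482 CPM (-0.21 ± 0.051, adjusted p = 0.00158). Of the 4 peripheral stalk genes 3 fell, ATP5PB (-0.26 ± 0.056), ATP5PD (-0.22 ± 0.059) and ATP5PO (-0.19 ± 0.076), and none of the 3 stalk genes ATP5F1C, ATP5F1D and ATP5F1E passed. ATP5IF1, which had risen in Sen(IR), was at 39.5, 46.4 and 41.5 CPM with UK5099, below all Sen(IR) libraries (-0.33 ± 0.068, adjusted p = 0.000355, edgeR). ATP5S, which had fallen, was at 17.0, 15.4 and 14.0 CPM, above all Sen(IR) libraries (0.43 ± 0.091, adjusted p = 0.000481, edgeR).

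In complex III, 6 of 10 members passed as lower (60%, against 23.5% of all tested genes) and none as higher (0%, against 21.9%). UQCRC1 was at 85.3, 88.1 and 90.9 CPM in Sen(IR) and 64.9, 69.1 and 64.1 with UK5099, well apart (-0.42 ± 0.068, adjusted p = 3.06e-05, edgeR). UQCRC2, which had not moved beyond its error in Sen(IR), fell from 125 to 132 CPM to 109 to 114 (-0.22 ± 0.051). CYC1 fell further, to 24.3, 21.5 and 19.5 CPM (-0.31 ± 0.085, adjusted p = 0.00484, edgeR), as did UQCRFS1 (-0.23 ± 0.063), UQCRB (-0.23 ± 0.059) and UQCR10 (-0.20 ± 0.077). UQCRH (-0.03 ± 0.067), UQCRQ (0.02 ± 0.081) and UQCR11 (-0.21 ± 0.089, adjusted p = 0.0562) did not pass, UQCR11 doing so without UK5099 replicate 2 (-0.32, adjusted p = 0.00622).

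Complex I had 11 passing falls among 38 members (28.9%, near the 23.5% of all tested genes) and no passing rise (0%, against 21.9%). NDUFV2, an iron-sulfur protein beside the flavin, was at 23.5, 25.6 and 23.1 CPM in Sen(IR) and 16.6, 18.0 and 17.6 with UK5099, without overlap (-0.47 ± 0.094, adjusted p = 0.000312, edgeR); 28.4% of its exon bases are shared with another listed gene. The accessory subunits NDUFB10 (-0.38 ± 0.086), NDUFA8 (-0.32 ± 0.072) and NDUFA9 (-0.32 ± 0.071) followed. NDUFB9 fell by 0.30 ± 0.085 on the log2 scale and did not pass without UK5099 replicate 3 (adjusted p = 0.0613). Of the core subunits NDUFS8 also passed (-0.29 ± 0.10, adjusted p = 0.0203), but not without Sen(IR) replicate 2 or UK5099 replicate 3. NDUFV1 (0.07 ± 0.065) and NDUFS1 (0.08 ± 0.051) did not pass.

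Complex IV gave 3 passing falls (30%, against 23.5% of all tested genes) and 1 passing rise (10%, against 21.9%) among 10 tested members. Its median was 0.01. COX8A was at 34.5, 34.8 and 37.7 CPM in Sen(IR) and 28.9, 28.9 and 28.3 with UK5099 (-0.31 ± 0.073, adjusted p = 0.0013, edgeR), and COX5A (-0.23 ± 0.074) and COX5B (-0.21 ± 0.084) fell too. COX7C, a small membrane subunit, rose from 85.0, 80.3 and 84.6 CPM to 94.7, 103 and 90.1 (0.20 ± 0.068, adjusted p = 0.0183, edgeR), with adjusted p of 0.110 without UK5099 replicate 2 and 0.0816 without Sen(IR) replicate 2. COX7A1 was at 12.9, 17.5 and 12.5 CPM, which overlaps Sen(IR) (0.24 ± 0.13, 95% interval -0.04 to 0.52, adjusted p = 0.0416 without Sen(IR) replicate 3), and COX7A2 at 48.4, 53.9 and 48.2 (0.02 ± 0.069).

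**Figure D4:**
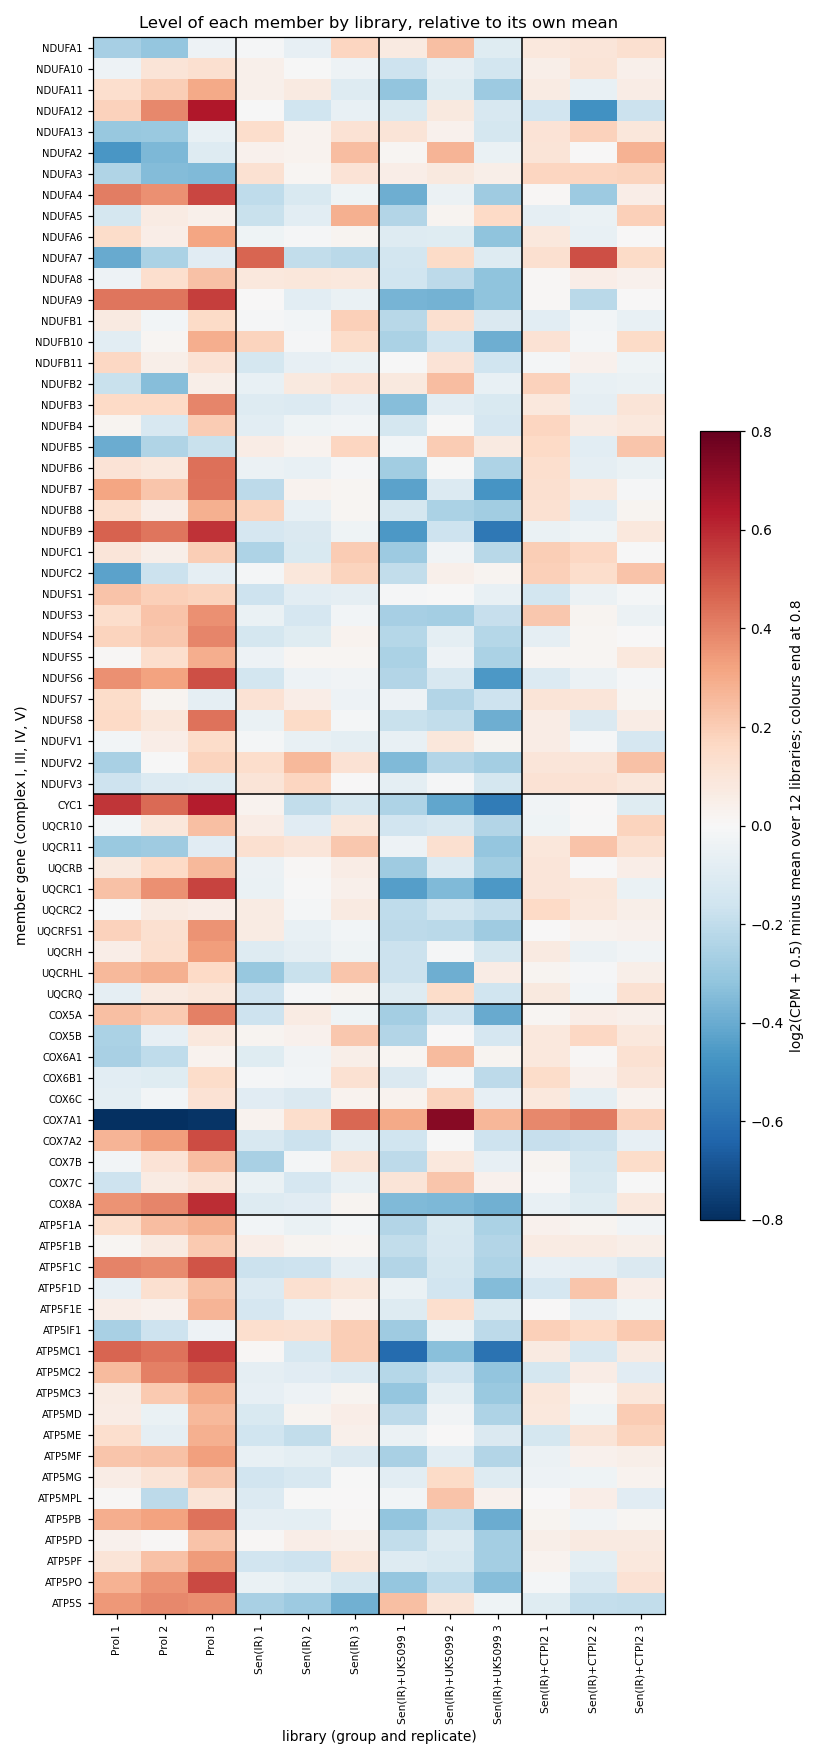
Level of 75 members (rows, by complex) in the 12 libraries (columns, by group), as log2(CPM + 0.5) minus the gene's mean over the libraries; red is higher and blue lower, with colours ending at 0.8. Prol replicate 3 is the reddest column, UK5099 replicates 1 and 3 the bluest, and the COX7A1 row runs against its neighbours.

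Promoters are shown for the member with the largest passing fall under UK5099 in each complex, since all 4 genes fell there. The sequences are RefSeq windows on GRCh38.p14, from 250 bases before to 50 after the gene's start, written 5′ to 3′ along the gene's strand. Capitals mark exact matches, on either strand, to 1 of 4 motifs searched: an NRF1 type (GCGCATGCG), an ETS type (CCGGAAGT), a YY1 type (AAGATGGCG) and a CRE type (TGACGTCA).

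NDUFV2 (chr18:9102449-9102748, plus strand): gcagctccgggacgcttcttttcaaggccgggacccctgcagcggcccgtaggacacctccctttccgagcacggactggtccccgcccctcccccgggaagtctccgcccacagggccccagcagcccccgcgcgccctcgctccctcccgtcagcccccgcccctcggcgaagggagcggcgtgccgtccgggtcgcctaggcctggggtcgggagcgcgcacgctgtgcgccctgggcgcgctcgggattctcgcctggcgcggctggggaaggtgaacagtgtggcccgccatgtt
UQCRC1 (chr3:48609597-48609896, minus strand): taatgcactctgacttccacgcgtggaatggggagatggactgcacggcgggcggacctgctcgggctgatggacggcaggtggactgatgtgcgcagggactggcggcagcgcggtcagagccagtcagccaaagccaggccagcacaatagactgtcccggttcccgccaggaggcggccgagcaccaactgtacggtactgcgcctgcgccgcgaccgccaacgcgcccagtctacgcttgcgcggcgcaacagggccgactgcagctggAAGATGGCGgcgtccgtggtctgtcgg
COX8A (chr11:63974370-63974669, plus strand): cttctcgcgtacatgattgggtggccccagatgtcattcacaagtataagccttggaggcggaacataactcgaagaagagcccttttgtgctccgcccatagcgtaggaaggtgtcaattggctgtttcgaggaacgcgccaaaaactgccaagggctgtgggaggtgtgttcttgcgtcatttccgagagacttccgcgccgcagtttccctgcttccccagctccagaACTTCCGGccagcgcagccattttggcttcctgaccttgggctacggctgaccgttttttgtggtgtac
ATP5MC1 (chr17:48892537-48892836, plus strand): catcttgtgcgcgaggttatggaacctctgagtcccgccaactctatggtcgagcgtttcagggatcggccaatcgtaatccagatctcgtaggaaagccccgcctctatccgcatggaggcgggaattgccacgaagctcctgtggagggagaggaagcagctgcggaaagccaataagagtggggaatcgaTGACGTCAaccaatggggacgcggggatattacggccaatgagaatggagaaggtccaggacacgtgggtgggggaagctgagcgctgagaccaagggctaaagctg

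The ATP5MC1 window held 1 CRE type match, the COX8A window 1 ETS type match on the opposite strand, the UQCRC1 window 1 YY1 type match just after the start, and the NDUFV2 window none of the 4. Windows were found for 64 of 82 members. An NRF1 type match was present in 9 of them (14.1%, against 2.1% of 27305 gene windows), an ETS type in 9 (14.1%, against 4.44%), a YY1 type in 7 (10.9%, against 1.85%) and a CRE type in 4 (6.25%, against 1.98%). At least 1 of the 4 was present in 26 windows (40.6%, against 9.56%). The 27305 windows were not limited to genes expressed in these cells, whereas nearly all members are expressed. The shares among expressed genes were not computed, so these differences may not be particular to the members. GC content was close, with medians of 60.7% in member windows and 58.3% in all. These are letter matches, and none was measured as a binding site here.

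The third comparison asks the same of the citrate carrier inhibitor. With CTPI2 no member passed in either direction, against 0.400% of all tested genes as lower and 0.0861% as higher, and none was called beyond 0.5 (all genes 0.148% and 0.0185%). DESeq2 gave no passing member either. At an unadjusted p of 0.05 edgeR had 2 of 77 members, against 1182 of all 16251 tested genes. The CTPI2 and Sen(IR) libraries were fully apart for 8 members (10.4%, against 15.1%). The members' log2 fold changes were positive for 64 and negative for 13, where all tested genes had 8289 and 7962. Their median was 0.04 against 0.00 for all genes. Signs of members read in the same libraries are not independent, and the split was not tested. For the 76 members above 1 CPM the estimates ran from -0.19 to 0.26, and their 95% intervals from -0.41 to 0.74.

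The 2 members with the smallest unadjusted p were NDUFA4L2 and NDUFB4. NDUFA4L2, a paralog of NDUFA4 known as a hypoxia-responsive gene, had 20, 15 and 11 counts in Sen(IR) and 9, 5 and 8 with CTPI2, a log2 fold change of -1.18 ± 0.44 (adjusted p = 0.482, edgeR). NDUFB4 was at 53.8, 55.6 and 56.2 CPM in Sen(IR) and 64.2, 59.6 and 60.4 with CTPI2 (0.15 ± 0.071, adjusted p = 0.667, edgeR). ATP5MC1, which was lower with UK5099, was at 26.8, 23.3 and 26.8 CPM with CTPI2, inside the Sen(IR) range (-0.03 ± 0.092, 95% interval -0.22 to 0.16), and UQCRC1 at 94.5, 94.1 and 85.1 (0.05 ± 0.067, 95% interval -0.09 to 0.19).

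Set directly against CTPI2, UK5099 had 40 of 77 members lower (51.9%, against 23.4% of all tested genes) and 1 higher (1.30%, against 21.1%). ATP5MC1 was the only member called beyond 0.5 (lower 1.30%, against 11.7%; higher 0%, against 8.20%), with -0.52 ± 0.093 (adjusted p = 8.91e-05, edgeR). By complex, 19 of 38 members passed as lower in complex I (50%), 6 of 10 in complex III (60%), 4 of 10 in complex IV (40%) and 11 of 19 in complex V (57.9%). UQCRC1 (-0.47 ± 0.068), NDUFV2 (-0.44 ± 0.094), ATP5IF1 (-0.37 ± 0.068) and COX8A (-0.35 ± 0.073) were lower, and ATP5S was higher (0.28 ± 0.089, adjusted p = 0.0153), which did not pass without UK5099 replicate 1 (adjusted p = 0.102) or CTPI2 replicate 2 (0.0506). This count fell to 26 without UK5099 replicate 3 and to 22 with library totals alone. The inhibitors differ in target and concentration, so this is a comparison of 2 treatments as given.

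Other genes of the pathway were tested in the same fit. Of 13 mitochondrially encoded subunits, 7 passed as higher (53.8%, against 34.1% of all tested genes) and 1 as lower (7.69%, against 34.5%) in Sen(IR) against Prol. With UK5099, 9 passed as higher (69.2%, against 21.9%) and 2 as lower (15.4%, against 23.5%). The medians were 0.22 and 0.23 on the log2 scale. MT-ND6, of complex I, was at 829 CPM (mean, n = 3) in Sen(IR) and 2303 with UK5099 (1.47, adjusted p = 5.61e-12, edgeR), MT-ND5 rose by 1.06 and MT-CO2, of complex IV, by 0.72, while MT-CO3, also of complex IV, fell by 0.67 and MT-ATP8 by 0.35. MT-ND5 and MT-ND6 are encoded on opposite strands. The sources used here do not say whether the libraries were strand-specific, so reads counted for either gene may come from both strands. With CTPI2 none of the 13 passed. Of all counts, mitochondrial genes held from 2.36 to 2.68% in the Prol libraries, from 2.78 to 3.21% in the Sen(IR) libraries, and between 3.81 and 4.23% under UK5099 and 2.39 and 3.28% under CTPI2; the part of this share in the members' fall was not tested.

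**Figure D5:**
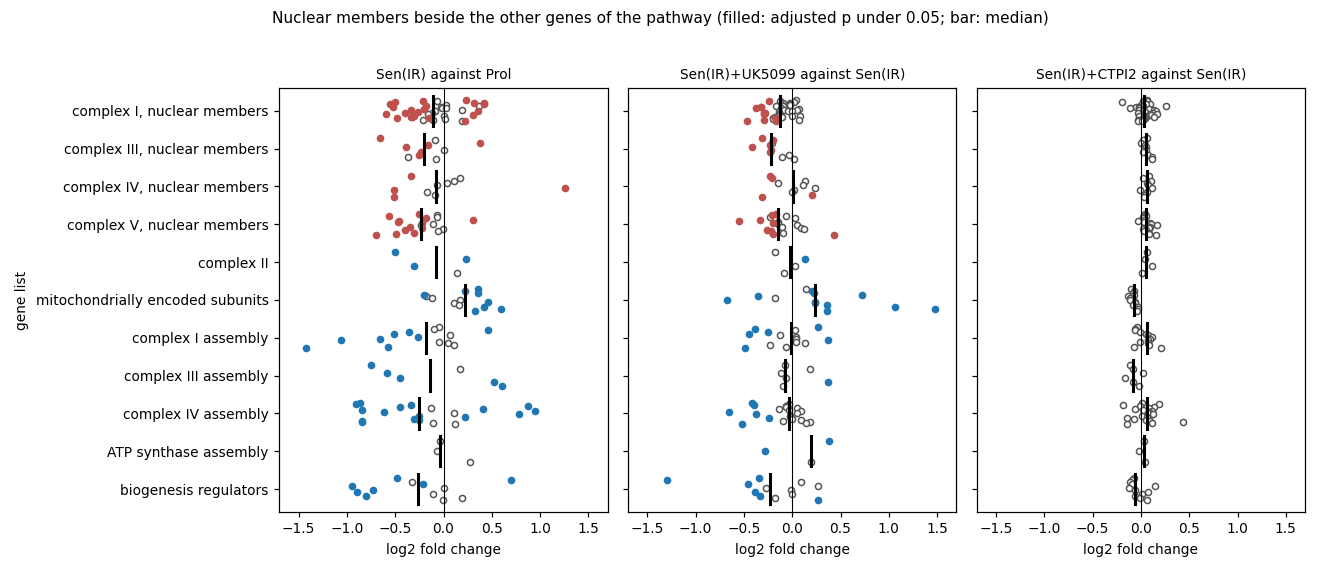
Log2 fold change (x axes) of single genes in the nuclear members of each complex (red where passing) and in other lists of the pathway (blue where passing), in 3 comparisons; open points did not pass an adjusted p of 0.05, black bars are list medians, and NDUFA4L2 is left out. With UK5099 the mitochondrially encoded genes have a median of 0.23 to the right of 0 and complexes I, III and V medians of -0.13, -0.22 and -0.15 to the left.

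In complex II, which has no mitochondrially encoded part, SDHB (-0.50) and SDHA (-0.30) fell and SDHC rose (0.23) in Sen(IR) against Prol, and with UK5099 SDHC alone passed (0.13, adjusted p = 0.0465, edgeR). CYCS, cytochrome c itself, fell in both, by 0.69 and by 0.52 on the log2 scale. COX4I1, a complex IV subunit whose name the rule does not match, was higher in Sen(IR) (0.15) and gave -0.03 with UK5099. Of the other subunits outside the rule, COX7A2L fell in Sen(IR) (-0.31) and gave -0.13 with UK5099, NDUFAB1 gave -0.10 and -0.17, and COX4I2, with 0 counts throughout, could not be fitted. The counts in the other lists stand against 34.5% lower and 34.1% higher of all tested genes in Sen(IR), and 23.5 and 21.9% with UK5099. Among assembly factors of complex IV, 12 of 21 passed as lower (57.1%) and 5 as higher (23.8%) in Sen(IR), and 6 (28.6%) and 0 with UK5099, with COA4 falling in both (-0.62 and -0.66) and SURF1 rising in Sen(IR) (0.94). Of 14 complex I assembly factors, 7 were lower (50%) and 1 higher (7.14%) in Sen(IR), and 4 (28.6%) and 2 (14.3%) with UK5099. ECSIT fell in both (-1.42 and -0.49). In complex III assembly 3 of 6 were lower and 2 higher in Sen(IR), and 0 and 1 with UK5099. Of the 3 ATP synthase assembly factors none passed in Sen(IR), and with UK5099 ATPAF1 rose (0.38) and TMEM70 fell (-0.28).

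Of 12 regulators of mitochondrial gene expression and biogenesis, 6 passed as lower (50%, against 34.5% of all tested genes) and 1 as higher (8.33%, against 34.1%) in Sen(IR). With UK5099, 5 passed as lower (41.7%, against 23.5%) and 1 as higher (8.33%, against 21.9%). The 1 higher in Sen(IR) was PPARGC1A, the coactivator PGC-1α, at 1.01 CPM in Prol and 1.63 in Sen(IR), with overlapping libraries (0.70, adjusted p = 0.0311, edgeR). The nuclear respiratory factor NRF1 (-0.95), the mitochondrial transcription factor TFAM (-0.73), the coactivator PPRC1 (-0.90) and GABPB1, a subunit of the ETS factor GABP (-0.80), were lower in Sen(IR). With UK5099 PPRC1 (-0.39), GABPB1 (-0.34), TFB1M (-0.46) and TFB2M (-0.35) were lower, TFAM gave -0.01 and NRF1 0.27 (adjusted p = 0.0716), and GABPA, the partner of GABPB1, was higher (0.26). PPARGC1A went from 1.63 CPM in Sen(IR) to 0.664 with UK5099 (-1.30, adjusted p = 0.00108, edgeR). This gene is low, with at most 42 counts in a library. With CTPI2 no gene of these lists passed.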

How the data were processed

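RNA from 12 libraries of MRC5 cells was sequenced, and the authors deposited a table of raw read counts per gene. Per the labels and the submitters' processing notes, reads were trimmed (Trimmomatic 0.36), aligned to GRCh38 (STAR 2.5.2b) and counted (featureCounts, Subread 1.5.2); whether the libraries were strand-specific is not given in the sources used here, which say only that such libraries would be counted by strand. Genes were filtered with filterByExpr, scaled by TMM and tested with edgeR 4.0.16 (glmQLFit, glmQLFTest; R 4.3.3) on all 12 libraries in 1 fit over 4 groups, with no replicate block and Benjamini-Hochberg adjustment over 16251 genes. A gene passed at an adjusted p under 0.05 and was called with an absolute log2 fold change over 0.5 as well. Standard errors came from the quasi-likelihood F. The common dispersion was 0.00374, a coefficient of variation of 6.12%. Transcript lengths and exon overlaps came from GENCODE 44. In 16 members over 20% of the exon bases are shared with other listed genes, so their counts are uncertain. Among the core subunits of complex I this holds for NDUFV2 and for NDUFS7 (51.4%). Of 192 names matching the rule, 110 pseudogenes were left out, which held 0.0543% as many counts as the members.

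Members and gene lists were chosen with earlier results of these data known. Values in each library were given for members past the 0.5 limit (the 3 largest rises and falls where more than 6), the largest passing rise and fall of each complex, core subunits, isoform genes, and, for CTPI2, members with an unadjusted p under 0.05; other members named were chosen after their values were seen. The results of 1 member are not reported here. Motif letters were read in RefSeq promoter windows. The alternatives were DESeq2 1.42.0, other scalings, no filter, other thresholds, 2 groups alone, a replicate block and leaving out each library. The tests were tried on simulated counts.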

Additional observations from a re-analysis of the deposited data

How the results depend on the processing

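Of 1536 values of 32 named members under the alternatives, 1463 stayed on their side of the adjusted p threshold, 39 stopped and 34 began passing, and none past it reversed. Of the 1463, 69 changed sign with neither value passing. RLE factors and DESeq2 moved no count of members by over 1.5 times. Upper-quartile factors gave, in Sen(IR) against Prol, 5 members called and medians of -0.0404 (all), 0.0225 (complex I), -0.0777 (III), 0.0455 (IV) and -0.11 (V), and in UK5099 against CTPI2 2 higher and 0 called. Library totals alone gave, in UK5099 against Sen(IR), 9 higher and 14 lower with medians of -0.0485 (all), -0.0424 (I), -0.13 (III), 0.0938 (IV) and -0.0591 (V), and in UK5099 against CTPI2 3 higher, 22 lower and 0 called. These shifts move all genes together by construction. Where a call needed a log2 fold change over 1 in size, 1 member was called in Sen(IR) against Prol and 0 in both UK5099 comparisons. At an unadjusted p under 0.05, CTPI2 had 1 higher, 1 lower and 1 called, and UK5099 against CTPI2 2 higher. No filter gave 2 higher there, and fitting only the groups compared gave 3.

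Leaving out 1 library at a time, members in Sen(IR) against Prol ranged over 9 to 14 higher, 29 to 37 lower and 7 to 13 called. In UK5099 against Sen(IR) they ranged over 1 to 3 higher, 16 (without UK5099 replicate 3) to 33 (without UK5099 replicate 2) lower and 0 to 2 called. In UK5099 against CTPI2 the ranges were 0 to 2 higher, 26 to 44 lower (the same libraries) and 0 to 4 called. With CTPI2 against Sen(IR) all were 0. The cause was not tested. Whether replicate numbers pair the libraries was not settled. Deviations of same-numbered libraries correlated above 0.1 in 5 of 12 pairs, and 5 libraries correlated best with their own number. Libraries numbered 3 correlated at 0.11 to 0.21 in every comparison. No chance level was computed for these values. With the replicate block 10 members were higher and 36 lower in Sen(IR) against Prol, 2 and 27 with UK5099, 0 and 0 with CTPI2, and 1 and 38 in UK5099 against CTPI2. Low counts limit NDUFA4L2, at 5 to 23 counts a library, and the 5 untested members.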
